A study of Homo sapiens with 10 samples.

Results

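SPRY1, SPRY2, SPRY4, SPRED1, SPRED2, SPRED3, ETV4 and ETV5, 8 of the 20327 genes in the tables, make up a set of genes that act in the feedback and output of the ERK pathway. They were taken by symbol from a fixed list, matched through Ensembl gene identifiers, and the rule that names them uses no measured value. All 8 were found, and all 8 passed the limit on low values used here in every comparison. RNA was measured by sequencing of polyadenylated RNA in 10 libraries of wild type hTERT RPE-1, a telomerase-immortalised line derived from human retinal pigment epithelium. All cultures, controls included, had spent 48 h in medium with 0.1% serum. The first experiment held 3 libraries of cells given the vehicle DMSO for 30 min and 3 of cells given merbarone at 200 µM for 30 min. The second held 2 libraries of untreated cells and 2 of cells given merbarone at 200 µM for 2 h, so its controls had received no vehicle. Merbarone is a catalytic inhibitor of topoisomerase II, and the series concerns DNA supercoiling and promoter-proximal pausing of RNA polymerase II. The labels name a single cell line and do not say whether replicates came from separate cultures, so the p-values measure the spread between these libraries, which may be technical.

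Growth factor receptors signal through GRB2 and SOS to RAS, and from RAS through the RAF, MEK and ERK kinases to transcription factors. The Sprouty proteins (SPRY) and the Sprouty-related SPRED proteins are inhibitors of that route: Sprouty proteins bind adaptors and the ubiquitin ligase CBL below receptors such as those for FGF, and SPRED proteins bring the RAS GTPase-activating protein neurofibromin (NF1) to the membrane. ETV4 and ETV5 are ETS transcription factors of the PEA3 group. Several of these genes are themselves transcribed in response to ERK, which is why Sprouty, SPRED and ETV transcripts are widely used as readouts of ERK output. In serum-starved cells that output is commonly low.

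The promoters of the genes at the extremes of the 2 h comparison are shown first, together with a SPRED3 window that held 2 kinds of motif match. The second SPRED2 window also held 2 kinds and is not printed. RefSeq (table on GRCh38.p14) gave windows of 300 bases, from 250 before to 50 after a transcript start, for 6 of the 8 genes, 11 windows in all. Neither ETV4 nor ETV5 had an entry. The windows were placed on GRCh37, the build named in the submitters' processing notes, by exact match. Capitals mark matches to the motifs searched on both strands: the ETS core CCGGAAG, the Capicua (CIC) octamers TGAATGAA and TGAATGGA, the AP-1 site TGANTCA, the cyclic AMP response element TGACGTCA, the EGR1 site GCGTGGGCG, the TATA element TATAAA and the CArG box of serum response factor. No match in the windows printed overlapped another.
SPRY1, first start, chr4:124317700-124317999, plus strand: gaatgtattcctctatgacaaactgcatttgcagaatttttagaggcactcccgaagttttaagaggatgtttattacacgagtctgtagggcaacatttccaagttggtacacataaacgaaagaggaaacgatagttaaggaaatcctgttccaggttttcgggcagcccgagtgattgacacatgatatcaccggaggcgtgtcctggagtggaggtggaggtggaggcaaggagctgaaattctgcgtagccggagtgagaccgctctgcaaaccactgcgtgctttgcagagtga
SPRY1, second start, chr4:124319291-124319590, plus strand: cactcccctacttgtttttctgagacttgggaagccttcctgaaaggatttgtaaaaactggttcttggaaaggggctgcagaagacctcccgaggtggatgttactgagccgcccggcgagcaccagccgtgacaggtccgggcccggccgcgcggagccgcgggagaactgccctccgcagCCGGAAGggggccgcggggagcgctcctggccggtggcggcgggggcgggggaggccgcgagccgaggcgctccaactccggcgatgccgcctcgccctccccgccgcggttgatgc
SPRY4, chr5:141703763-141704062, minus strand: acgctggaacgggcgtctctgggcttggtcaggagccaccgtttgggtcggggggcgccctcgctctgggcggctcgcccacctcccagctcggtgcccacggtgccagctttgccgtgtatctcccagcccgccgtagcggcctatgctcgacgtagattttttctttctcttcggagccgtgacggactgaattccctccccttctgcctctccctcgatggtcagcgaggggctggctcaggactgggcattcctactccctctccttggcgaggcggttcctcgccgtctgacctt
SPRED3, first window, chr19:38880181-38880480, plus strand: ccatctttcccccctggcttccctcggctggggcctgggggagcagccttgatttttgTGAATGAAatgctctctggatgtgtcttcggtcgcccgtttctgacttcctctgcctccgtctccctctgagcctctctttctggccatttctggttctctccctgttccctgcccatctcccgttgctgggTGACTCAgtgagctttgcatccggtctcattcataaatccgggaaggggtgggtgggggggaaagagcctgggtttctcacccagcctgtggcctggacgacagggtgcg

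The first SPRY1 window and the SPRY4 window held none of these motifs. The second SPRY1 window held 1 ETS core, which begins at position -67 from the start. That motif was present in 1 of the 11 windows, and in 10.3% of all 35116 promoter windows of this length. The SPRED3 window held a CIC octamer at -192 and an AP-1 site at -60. The CIC octamer TGAATGAA occurs in 1.65% of all windows and the AP-1 site in 7.71%. A second SPRED2 start held 2 AP-1 sites and a TATA element, which occurs in 11.5% of all windows. The other octamer, the cyclic AMP response element, the EGR1 site and the CArG box matched 0 of the 11 windows, against 1.03%, 1.85%, 0.795% and 1.29% of all windows. No motif was found in more than 2 of the 11. The windows differed in base composition: GC content was 76.3% for SPRED1, 71.0% at the first SPRY2 start and 65.0% for SPRY4, but 47.7% at the first SPRY1 start and 69.3% at the second, where the quartiles of all windows are 47.0% and 68.0%. Motif matches describe these letters only, and no binding was measured.

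Depth differed between the experiments, with 26633780 to 38225538 recovered reads per library in the 30 min experiment and 11956652 to 13691014 in the 2 h experiment. Replicates with the same number deviated together from their group means in the 30 min experiment, with correlations across genes of 0.850, 0.618 and 0.536. Replicate 1 of both 30 min groups stood apart from replicates 2 and 3. The counts of replicate 1 differed from those of the other replicates by a chi-square of 53.0 to 63.3 per degree of freedom, against 22.5 and 15.8 between replicates 2 and 3 of the DMSO and merbarone groups. Without replicate 1 of both groups, 0 of the 8 genes were called at 30 min, as with it. The line's vimentin gene VIM measured 560.3 to 1105 RPKM and KRT18 14.1 to 69.4 RPKM. Of 6 genes of pigment epithelium, RPE65, RLBP1 and TYR were nearly absent, with at most 19, 22 and 14 reads per library. The other 3 had more reads, OTX2 at 2.35 to 4.61 RPKM, MITF at 0.218 to 0.415 RPKM and BEST1 at 2.10 to 20.03 RPKM. Group means of BEST1 were 2.58 (DMSO) and 2.48 RPKM (merbarone) at 30 min. In the 2 h experiment they were 18.8 (untreated) and 18.5 RPKM (merbarone). BEST1 shares 5798 bases of its span with FTH1 on the opposite strand, so its values are uncertain if reads were counted without regard to strand. EPCAM had at most 2 reads and PTPRC at most 25.

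The deposited RPKM values divide reads by the length of the whole gene for most genes, introns included, so they do not compare genes by transcript length. Levels between genes were therefore compared as reads per kilobase of merged GENCODE exons, scaled to library size as in RPKM. On that scale SPRY2 was the most abundant, with a mean of 38.4 over the 10 libraries (range 29.1 to 47.2), higher than 93.9% of the 17234 genes measured. ETV5 followed at 18.8 (15.1 to 23.7). The ranges of SPRY2 and ETV5 did not overlap, and neither did those of ETV5 and SPRED2. SPRED2 at 12.7 (10.8 to 14.3) and SPRED1 at 10.3 (5.99 to 13.3) overlapped. ETV4 at 4.76 (2.44 to 6.57), SPRY4 at 2.28 (1.56 to 2.86), SPRY1 at 1.92 (1.01 to 2.4) and SPRED3 at 0.876 (0.602 to 1.56) each overlapped the neighbour above. Further apart in that order, SPRED1 lay wholly above SPRY4, SPRY1 and SPRED3, and ETV4 wholly above SPRY1 and SPRED3. This scale takes the reads as exonic, and whether reads in introns were counted is not stated in the sources used here. Such reads would raise genes with long introns, such as SPRED1, with 7750 exon bases in a span of 104414. On the deposited scale SPRED1 (0.442 to 0.980 RPKM) and SPRY4 (0.636 to 1.17 RPKM) overlapped. The ETV4 values are also uncertain because its span lies within another gene. SPRED3 lay at the percentile 32.2 of measured genes. The fourth Sprouty gene, SPRY3, had 0 reads in all 10 libraries. Whether reads from SPRY3 could be placed and counted in these data was not tested, so this does not show that the gene is silent.

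**Figure D1:**
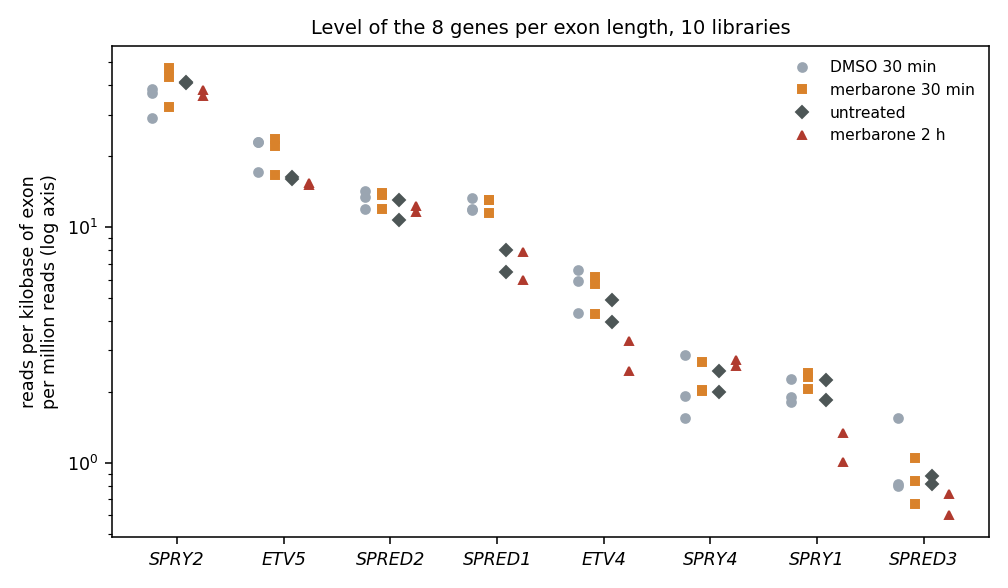
Levels of the 8 genes on a log axis, in reads per kilobase of merged exons scaled to library size as in RPKM, ordered by their mean over the 10 libraries, with 1 point per library and a symbol for each of the 4 groups. SPRY2 lies between 29.1 and 47.2 in every library and SPRED3 between 0.602 and 1.56.

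The 30 min comparison asked what changes early under merbarone. None of the 8 genes changed by limma's test on log2(RPKM + 0.1), and none had treated and control libraries that did not overlap. Over all 11871 genes tested, 0% passed an adjusted p of 0.05, 64 genes (0.539%) had an unadjusted p under 0.05, and in 2.32% the groups did not overlap. Without a block, 0 of the 8 genes had an unadjusted p under 0.05, and voom on recovered reads called 0. The log2 fold changes ran from -0.23 to 0.22, with a median of 0.01 beside -0.0034 for all genes tested. With the replicate number as a block, 0.0168% of all genes and 0 of the 8 were called. In that limma fit 2 of the 8 had an unadjusted p under 0.05, SPRY2 (0.00385) and SPRY1 (0.0187). The share of all genes with such a p in that fit is not reported here.

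**Figure D2:**
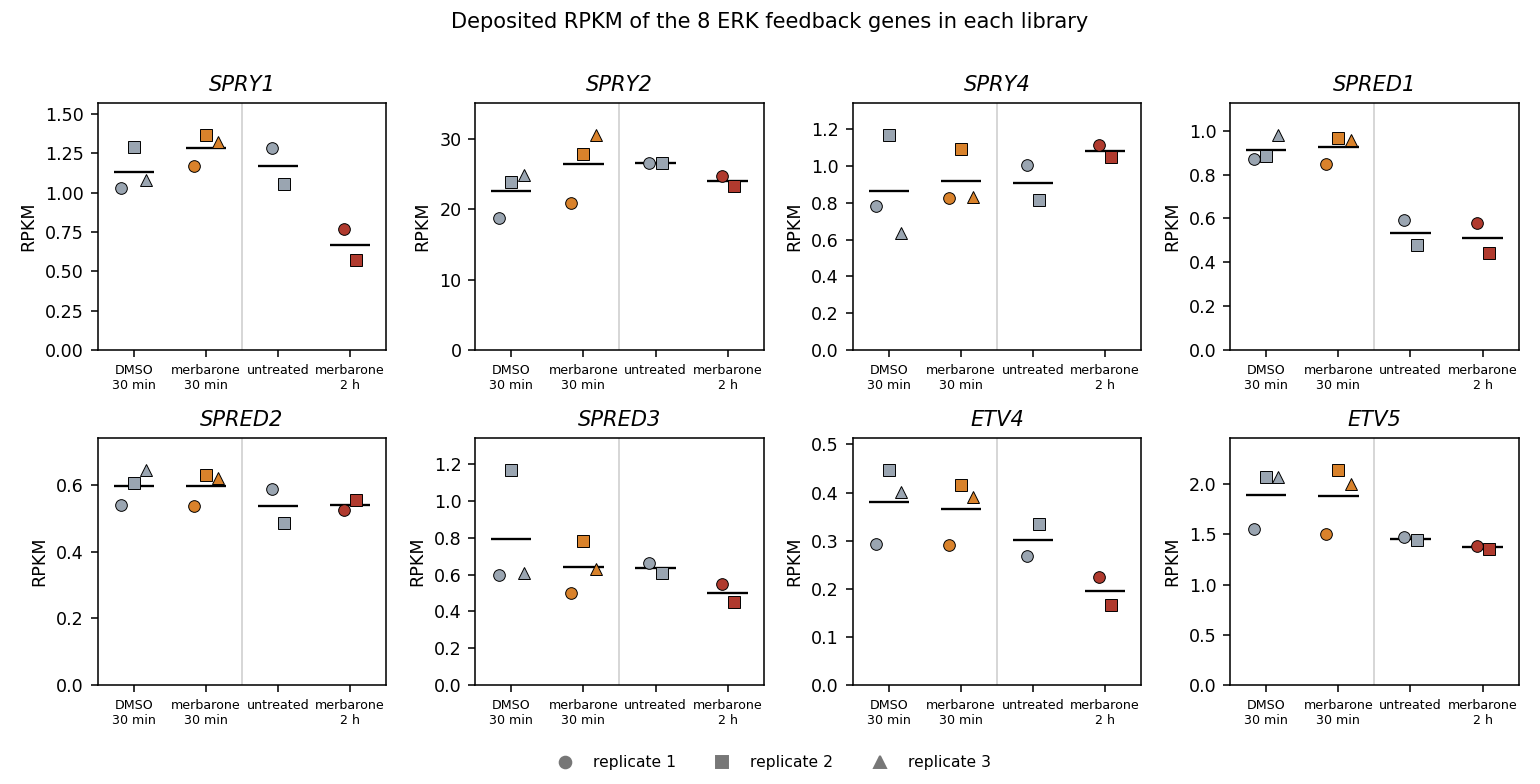
Deposited RPKM of each gene in every library, with a linear axis from 0 in each panel. Symbols give the replicate number, horizontal bars the group mean, and the vertical line parts the 2 experiments. SPRY1 has the lowest log2 fold change at 2 h, with merbarone libraries at 0.766 and 0.573 RPKM and controls at 1.28 and 1.06 RPKM. Replicate 1 is lowest in both 30 min groups for SPRY1, SPRY2, SPRED1, SPRED2, SPRED3, ETV4 and ETV5.

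Among the Sprouty inhibitors, SPRY2 (ENSG00000136158; GRCh37 chromosome 13, 80910111 to 80915261, minus strand) measured 18.8, 23.9 and 24.9 RPKM in DMSO replicates 1 to 3. After 30 min of merbarone the same-numbered libraries measured 20.8, 27.9 and 30.5 RPKM. Each treated library was above its same-numbered control, by ratios of 1.11, 1.17 and 1.23, but the groups overlapped. The log2 fold change was 0.22 ± 0.17 (SE, n = 3), with a limma adjusted p of 1.00. With the replicate number as a block the SE was 0.04 and the limma adjusted p 0.731. SPRY1 (ENSG00000164056; chromosome 4, 124317950 to 124324915, plus strand) showed the same arrangement at a lower level. It measured 1.03, 1.29 and 1.08 RPKM in DMSO and 1.17, 1.36 and 1.32 RPKM after merbarone. The 3 ratios were 1.14, 1.06 and 1.22, and the log2 fold change of 0.17 ± 0.10 (SE, n = 3) did not pass with or without the block. The SE of SPRY1 with the block was 0.05. SPRY4 (ENSG00000187678; chromosome 5, 141689992 to 141706020, minus strand) measured 0.784, 1.17 and 0.636 RPKM in DMSO and 0.828, 1.09 and 0.835 RPKM after merbarone. Its replicates spread over a wider range than its groups differed, and the interval of its log2 change, -0.41 to 0.63, leaves a change of either sign possible.

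The SPRED inhibitors did not move beyond the replicate spread at 30 min. SPRED1 (ENSG00000166068; chromosome 15, 38545037 to 38649450, plus strand) measured 0.872, 0.884 and 0.980 RPKM in DMSO and 0.846, 0.966 and 0.960 RPKM after merbarone. SPRED2 (ENSG00000198369; chromosome 2, 65537985 to 65659771, minus strand) measured 0.540, 0.606 and 0.644 RPKM and then 0.538, 0.628 and 0.622 RPKM. Without the block, the 95% intervals of the log2 fold change were -0.17 to 0.21 for SPRED1 and -0.21 to 0.21 for SPRED2. SPRED3 (ENSG00000188766; chromosome 19, 38879061 to 38890227, plus strand), the least abundant of the 8, measured 0.600, 1.17 and 0.609 RPKM in DMSO and 0.501, 0.785 and 0.631 RPKM after merbarone. Its log2 fold change was -0.23 ± 0.27 (SE, n = 3), and 0.05 without DMSO replicate 2. That removal left in merbarone replicate 2, the same-numbered library, which was also the highest of its group. The same-numbered log2 differences of SPRED3 were -0.22, -0.52 and 0.05 for replicates 1 to 3. The length behind the deposited SPRED3 values was 7824 bases, against a span of 11167 in the annotation used here. The region counted is therefore not the whole span given.

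The 2 ETS factors followed the replicate number closely at 30 min. ETV5 (ENSG00000244405; chromosome 3, 185764103 to 185828107, minus strand) measured 1.55, 2.07 and 2.07 RPKM in DMSO and 1.51, 2.14 and 2.00 RPKM after merbarone, so replicate 1 was low in both groups. ETV4 (ENSG00000175832; chromosome 17, 41605212 to 41656988, minus strand) measured 0.294, 0.446 and 0.401 RPKM and then 0.290, 0.416 and 0.391 RPKM. Their log2 fold changes were -0.01 ± 0.17 and -0.04 ± 0.16 (SE, n = 3). With the replicate number as a block the SE was 0.04 for each, and neither gene was called. The RPKM values of both genes are uncertain where reads were counted without regard to strand or to shared exons. The sources used here do not state how reads were counted. The ETV4 span lies within that of DHX8 on the opposite strand, and 4651 bases of the ETV5 span are shared with DGKG on the same strand.

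The 2 h comparison asked what changes later, against untreated cells. SPRY1 fell, and the other 7 genes did not pass the test. In bulk RNA, fewer cells carrying a transcript and less of it per cell cannot be told apart. Over the 12038 genes tested, 6.60% were called, 4.08% as higher and 2.52% as lower, and a count of 1 among 8 is no result about the set as a whole. An unadjusted p under 0.05 was reached by 3 of the 8 and by 26.3% of all genes. The treated and untreated ranges were separate in 6 of the 8 genes, against 58.4% of all genes tested. Treated values were lower for 5 (30.9% of all genes) and higher for 1 (27.5%). The median log2 fold change of the 8 was -0.12, beside -0.01 for all genes tested.

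SPRY1 measured 1.28 and 1.06 RPKM in untreated libraries 1 and 2, and 0.766 and 0.573 RPKM after 2 h of merbarone. Both treated libraries lay below both controls. The log2 fold change was -0.73 ± 0.16 (SE, n = 2; 95% interval -1.10 to -0.35), a ratio of 0.603, with a limma adjusted p of 0.0458. Behind it lay 119 and 88 reads in the controls and 73 and 52 in the treated libraries. The call sat at the threshold: the adjusted p was 0.109 without merbarone replicate 2, where the log2 change was -0.55, 0.158 without a limit on low values and 0.05005 with a pseudocount of 0.01, within a range of 7.74e-04 to 0.158 over 13 alternatives, 10 of which called it. A fit without 1 library leaves 1 sample in that group, takes the spread from the other pair and assumes that the lone sample varies alike. With a mean of at least 1 RPKM required, SPRY1 was not among the genes tested at 2 h, so its test exists only with the lower limit.

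The other Sprouty genes had smaller estimates. SPRY2 measured 26.6 and 26.5 RPKM untreated and 24.6 and 23.2 RPKM treated, from 1507 to 1763 reads per library. Its groups did not overlap, yet the log2 fold change of -0.15 ± 0.09 (SE, n = 2) did not pass. The 95% interval of SPRY2, -0.38 to 0.08, overlapped that of SPRY1, -1.10 to -0.35. Whether the 2 genes differed was not tested. SPRY4 was the member with the highest estimate at 2 h, at 1.01 and 0.814 RPKM untreated and 1.12 and 1.05 RPKM treated. Both treated libraries exceeded both controls, by a log2 difference of 0.24 ± 0.12 (SE, n = 2) with an adjusted p of 0.283.

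ETV4 measured 0.268 and 0.334 RPKM untreated and 0.224 and 0.166 RPKM treated, from 112 to 207 reads. The groups did not overlap, but the log2 fold change of -0.45 ± 0.15 (SE, n = 2) had an adjusted p of 0.122. Voom on the recovered reads called ETV4 lower (log2 fold change -0.62, adjusted p 0.0302), in a fit that called 6.09% of genes lower, and the adjusted p ranged from 0.00166 to 0.516 over 13 alternatives. ETV5 measured 1.48 and 1.44 RPKM untreated and 1.38 and 1.36 RPKM treated, a log2 difference of -0.08 ± 0.10 (SE, n = 2). The 2 PEA3 factors thus had estimates of the same sign and unequal size, and the difference between them was not tested.

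Of the SPRED genes, SPRED1 measured 0.591 and 0.477 RPKM untreated and 0.578 and 0.442 RPKM treated, and SPRED2 0.588 and 0.486 RPKM against 0.525 and 0.554 RPKM. The groups overlapped for both. The 95% intervals of the log2 change were -0.42 to 0.30 for SPRED1 and -0.28 to 0.30 for SPRED2, so a change of either sign remains possible. SPRED3 measured 0.662 and 0.609 RPKM untreated and 0.551 and 0.451 RPKM treated, from 46 to 69 reads, with a log2 difference of -0.30 ± 0.12 (SE, n = 2) and an adjusted p of 0.189.

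**Figure D3:**
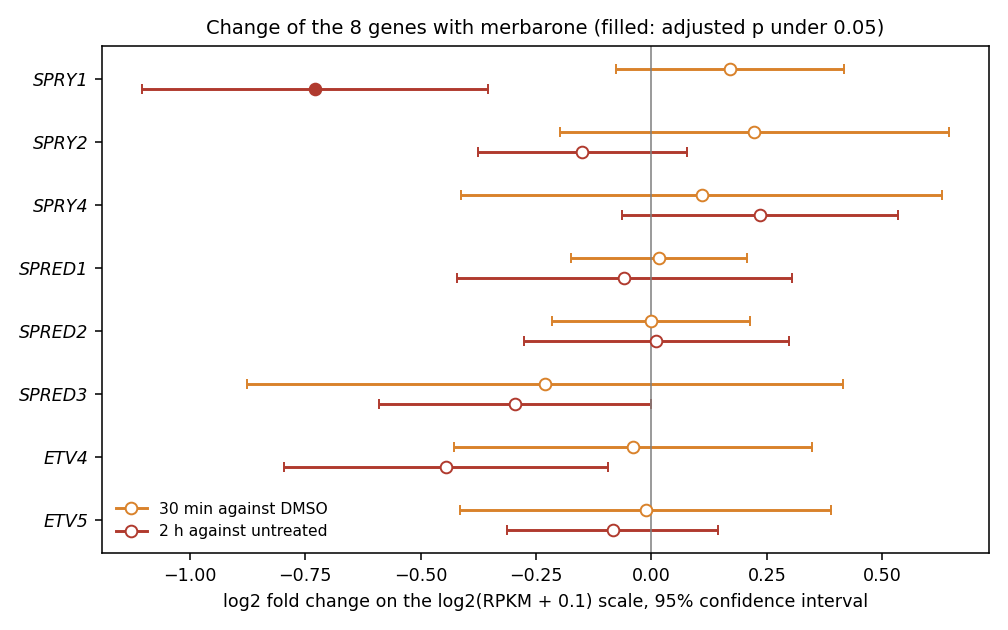
Log2 fold change of each gene on the log2(RPKM + 0.1) scale with its 95% confidence interval from limma, for 30 min of merbarone against DMSO and for 2 h against untreated cells. A filled point marks an adjusted p under 0.05, which SPRY1 at 2 h alone reached, with an interval of -1.10 to -0.35.

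Whether the effects differed between the experiments was tested as a contrast over all 10 libraries, in which time, kind of control and experiment cannot be told apart. In limma without a block, 0 of the 8 differences passed and 1 had an unadjusted p under 0.05, beside 1.04% of 11988 genes called and 14.1% with such a p, and voom called 0. The SPRY1 effect was lower at 2 h by -0.90 ± 0.20 (SE), with an adjusted p of 0.0827. The SPRY2 effect was lower by -0.37 ± 0.24 (SE), with an adjusted p of 0.534. With the replicate number as a block in the 30 min experiment, where the numbers pair the libraries, the adjusted p was 0.0292 for SPRY1 and 0.0478 for SPRY2, and 6.21% of genes were called, 2.59% as lower. That fit was added after seeing the data. For SPRY1 the adjusted p ranged from 0.00499 to 0.267 over 22 alternatives, 5 of which called it, median scaling (0.0417) and quantile normalization (0.0317) among them. For SPRY2 it ranged from 0.00969 to 0.754, and 3 of 22 called it. The other 6 differences ran from -0.41 for ETV4 to 0.13 for SPRY4 and passed in 0 of their alternatives.

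Other genes of the pathway were read from 5 fixed lists. At 30 min 0 genes of any list were called by limma, with or without the block, or by voom without the block. These were 0 of 7 tested receptors, 0 of 18 cascade genes (adaptors, SOS, RAS and kinases among them) and 0 of 9 Sprouty and SPRED partners. Of the remaining lists, 0 of 11 other ERK-responsive genes and 0 of 8 ETS factors and regulators were called. Without the block, 2 of these list genes and 0.539% of all genes had an unadjusted p under 0.05. Both were ERK-responsive: EGR1, a zinc finger factor of the immediate-early response, and DUSP6, the cytoplasmic phosphatase that removes phosphate from ERK. DUSP6 measured 7.71, 7.73 and 7.96 RPKM in DMSO and 10.9, 10.4 and 9.40 RPKM after 30 min of merbarone. Every treated library was above every control, and the log2 difference was 0.38 ± 0.07 (SE, n = 3), and its adjusted p was 1.00 (0.0739 to 1 over 18 alternatives). EGR1 measured 15.9, 5.16 and 3.36 RPKM in DMSO and 72.8, 37.0 and 28.9 RPKM after merbarone, with a log2 difference of 2.69 ± 0.62 (SE, n = 3) that was called in 1 of 18 alternatives, voom with the replicate block.

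At 2 h the ERK-responsive genes moved in both directions, 3 of 11 higher and 1 lower, beside 4.08% and 2.52% of all genes. Their median log2 change was -0.03, beside -0.01 for all genes. DUSP6 fell: it measured 6.66 and 6.45 RPKM untreated and 4.11 and 3.27 RPKM treated, a log2 fold change of -0.82 ± 0.13 (SE, n = 2) with a limma adjusted p of 0.0180, called in 14 of 15 alternatives and lost without a limit on low values (0.104). EGR1 rose from 2.73 and 2.69 RPKM to 65.7 and 53.1 RPKM, a log2 fold change of 4.40 ± 0.12 (SE, n = 2). IER3, an immediate-early gene whose product binds ERK, rose by 1.77 ± 0.14, and EPHA2, an ephrin receptor kinase, by 0.50 ± 0.11 on the log2 scale (SE, n = 2), with adjusted p-values of 0.00150 and 0.0443. IER3 also lost its call in 1 of 15 alternatives, without a limit on low values (0.0556). EPHA2 lost its call in 5 of 15 alternatives, the removal of either merbarone library among them (adjusted p 0.0537 and 0.236), which leaves 1 treated library and takes the spread from the untreated pair. SPRY1 and DUSP6 thus fell while EGR1, IER3 and EPHA2 rose.

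In the list of ETS factors and their regulators, ETS2, an ETS factor phosphorylated by ERK, rose from 1.35 and 1.25 RPKM to 5.59 and 6.03 RPKM and was 1 of 8 tested genes called. Among receptors EGFR was 1 of 7 called, at 0.831 and 0.730 RPKM untreated and 1.21 and 1.14 RPKM treated, a log2 difference of 0.54 ± 0.11 (SE, n = 2) with an adjusted p of 0.0403. That call was lost in 4 of 13 alternatives: without merbarone replicate 1 (adjusted p 0.179) or replicate 2 (0.0836), where again 1 treated library is left, without a limit on low values (0.120) and with all 10 libraries in the fit (0.0696). None of the 18 cascade genes and none of the 9 partners were called by limma without a block. In each of those lists 2 genes had an unadjusted p under 0.05, beside 26.3% of all genes. Voom called 1 of the 18 lower and 1 of the 9 in each direction, in a fit that called 6.09% of all genes lower. The share that voom called higher is not reported here, so the partner called higher has no background beside it. NF1, the partner of the SPRED proteins, had a log2 change of 0.11 ± 0.13 (SE, n = 2).

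**Figure D4:**
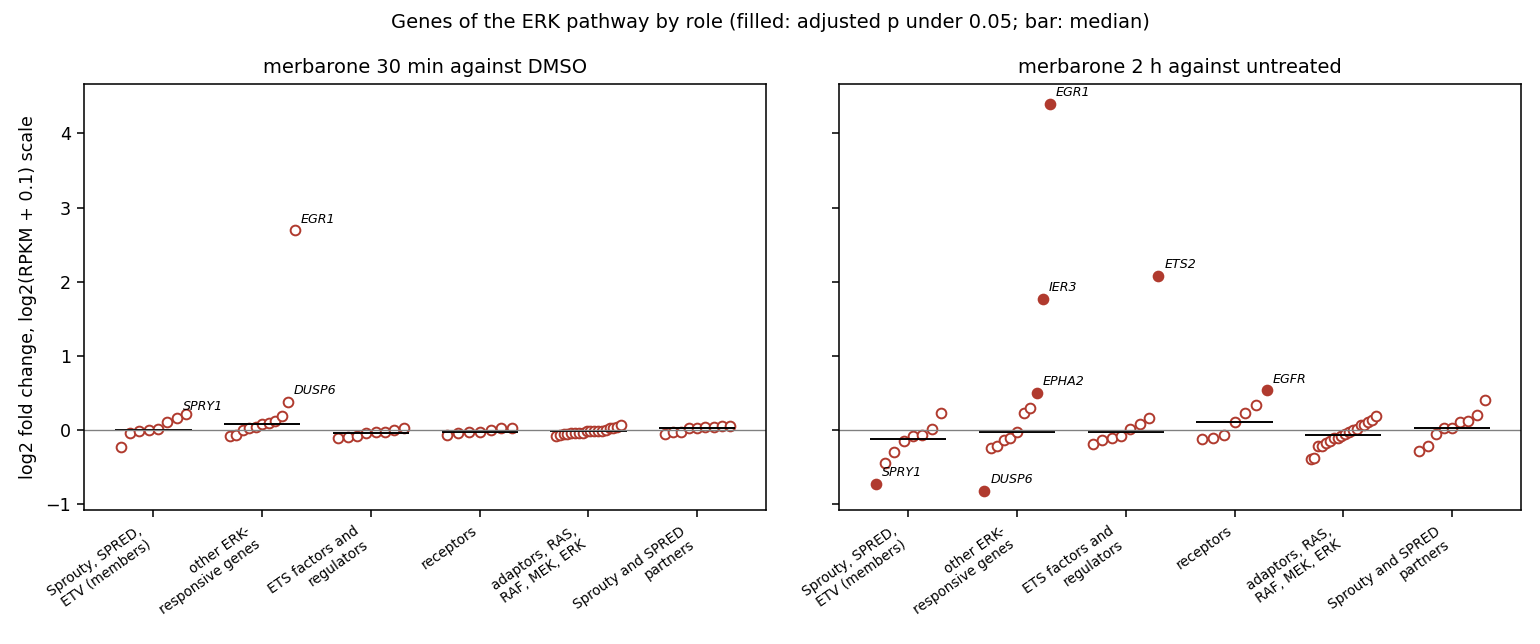
Log2 fold change of every tested gene of the 8 and of the 5 pathway lists on the log2(RPKM + 0.1) scale, at 30 min on the left and 2 h on the right. Filled points passed an adjusted p of 0.05 and bars give each list's median; at 2 h SPRY1 (-0.73) and DUSP6 (-0.82) lie below 0 and EGR1 (4.40), ETS2 (2.08), IER3 (1.77), EGFR (0.54) and EPHA2 (0.50) above it.

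How the 8 genes varied together is a description over 10 libraries, which share depth and replicate number, after subtracting each experiment's mean. All 28 pairs had a positive Pearson correlation, from 0.02 for ETV4 with SPRY4 to 0.82 for ETV5 with SPRY2. SPRY4 held 4 of the 5 lowest of the 28 values. ETV4 and ETV5 correlated at 0.75 and ETV4 and SPRY1 at 0.74. Among all 11988 genes, the pattern closest to SPRY1 was that of ANXA9 (r = 0.96), and those closest to SPRY2 and SPRY4 were RNF13 (0.95) and IQCB1 (0.97). For SPRED1, SPRED2 and SPRED3 they were ZNF559 (0.97), TNFAIP8 (0.97) and SLC35E4 (0.98). THRA was closest to ETV4 (0.98) and HSPA12A to ETV5 (0.99). HSPA12A spread widely within both 30 min groups, as ETV5 did, from 0.549 to 0.944 RPKM in DMSO and 0.541 to 0.937 RPKM after merbarone. ANXA9, like SPRY1, had lower values at 2 h, 0.569 to 0.665 RPKM against 0.810 to 0.815 RPKM untreated. These genes were picked for their likeness in the same libraries, treated ones included. The shared patterns therefore follow from the choice and are no separate result.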

How the data were processed

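Each library came as 1 table in which the authors give RPKM for every Ensembl gene, per the file headers. The submitters' processing notes name GRCh37 (hg19), Bowtie 1.2.0, DESeq2, edgeR and deepTools 2.4.1 without roles. Per the labels' protocols, the input was 150 ng of total RNA and the kit TruSeq Stranded mRNA; the read counter and its strand setting are not given in the sources used here. For each gene the deposited RPKM steps in whole multiples of 1 read, so reads were recovered for all 17680 genes with a value (100% whole). Totals implied by the steps and summed reads differed by at most 0.0057%. Gene lengths read from the steps matched the GRCh37 gene span to 1% in 74.9% of 17234 genes, and merged exon length in 1.60%. Because of this, a pseudocount of 0.1 and a mean of at least 0.1 RPKM were used where an earlier analysis of these data had used 1 and 1.

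Symbols came from gene identifiers (19174 of 20327 matched). Tests used limma 3.58.1 in R 4.3.3 (lmFit, eBayes with trend) on log2(RPKM + 0.1), two-sided, with Benjamini-Hochberg adjustment over all genes tested and a threshold of 0.05. Fold changes on that scale understate those of low genes. Alternatives were other pseudocounts and filters, median and quantile scaling, the replicate block, voom on recovered reads with a mean of at least 10 reads, all 10 libraries in 1 fit, and leaving out each library. The block rests on the replicate numbers in the labels, which pair the 30 min libraries by the correlations given in the text. Steps were tested on simulated data. Exons are those of GENCODE v44lift37. Python 3.11.15, NumPy 2.4.6, pandas 2.3.3 and matplotlib 3.10.9 were used. Named genes were the 8 members, list genes past the threshold (at most 6 per list) and the gene most alike to each member; DUSP6 and EGR1 at 30 min, NF1 and the marker genes were added beyond that rule. The members and lists were chosen with earlier results of these data known.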

Additional observations from a re-analysis of the deposited data

Results flagged for a closer look

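In the contrast between the experiments, 3 pathway genes outside the set of 8 had effects of merbarone that differed by limma's test. That test is what drew attention to them, and it called 1.04% of all 11988 genes. Of 11 tested ERK-responsive genes it called 1 higher and 1 lower, and of 8 ETS factors and regulators 1 higher. It called 0 of 7 receptors, 0 of 18 cascade genes and 0 of 9 partners. The DUSP6 effect was lower at 2 h than at 30 min by -1.20 ± 0.14 (SE), with an adjusted p of 0.00765 (5.10e-05 to 0.0402 over 22 alternatives, all of which called it). DUSP6 was higher in 3 of 3 treated libraries at 30 min and lower in 2 of 2 at 2 h. The ETS2 effect was higher by 2.05 ± 0.12 (SE), with an adjusted p of 3.36e-04, and was called in 22 of 22 alternatives. The IER3 effect was higher by 1.65 ± 0.25 (SE), with an adjusted p of 0.0203. It was called in 17 of 22 and lost its call without merbarone 30 min replicate 3 (0.05002), untreated replicate 1 (0.0635) or 2 (0.0526), or merbarone 2 h replicate 1 (0.0840) or 2 (0.113). Time, kind of control and experiment cannot be told apart in these differences.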

How the results depend on the processing

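At 30 min, where limma called 0 genes, 1 gene was called with a pseudocount of 1, with a mean of at least 1 RPKM, with both, without a filter, with median scaling, with quantile normalization and with voom. With the replicate block it called 2, with all 10 libraries 2, and with voom and the block 13; leaving out 1 library gave 0 to 1. At 2 h the 794 calls became 87 without a filter, 1886 with voom, 2028 with the replicate block and 3487 with voom and the block, and 656 to 2476 when 1 library was left out, the most without untreated replicate 1. The 2 h numbers share only a label (correlation 0.152, 2 pairs). With the block at 2 h, limma called 2 of the 18 cascade genes lower and 1 of the 9 partners higher. That fit called 2028 of the 12038 genes tested, in either direction. The 125 differences became 205 with a pseudocount of 1, 241 without a filter, 66 with voom, 1482 with the replicate block, 2100 with voom and the block, 744 with the block in the 30 min experiment only, and 31 to 88 when 1 library was left out.

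SPRED2 changed sign under median and quantile scaling: 0.0065 and 0.0022 at 30 min, -0.031 and -0.059 at 2 h, and -0.035 and -0.060 for the difference. Without replicate 1 of both 30 min groups, an alternative added after seeing the data, SPRED2 was 0.00058 and ETS2 -0.0075. EGFR at 30 min was -0.0013 with a pseudocount of 1, with or without the stricter filter. Leaving out 1 library at 30 min gave log2 changes of -0.066 to 0.33 for SPRY4, -0.013 to 0.072 for SPRED1, -0.061 to 0.061 for SPRED2, -0.38 to 0.052 for SPRED3, -0.18 to 0.083 for ETV4, -0.14 to 0.13 for ETV5, -0.049 to 0.21 for EPHA2, -0.040 to 0.059 for ETS2 and -0.12 to 0.10 for EGFR. At 2 h it gave -0.22 to 0.10 for SPRED1 and -0.11 to 0.13 for SPRED2. For the difference it gave -0.091 to 0.30 for SPRY4, -0.24 to 0.085 for SPRED1, -0.10 to 0.13 for SPRED2, -0.35 to 0.080 for SPRED3 and -0.22 to 0.060 for ETV5. None of these was called, and the cause of the moves was not tested. With 46 to 245 reads at 2 h in SPRED3, ETV4, SPRY1 and SPRY4, counting error limits these genes most.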
